A study of Rattus norvegicus with 15 samples.

Results

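Among the 32552 genes counted in primary rat astrocytes, 181 had lost at least 50% of their level after hydrogen peroxide (H2O2) and are described here through the treatments that followed. Levels are in CPM, the reads of a gene divided by the library total and multiplied by 1000000. A gene was a member when its control mean was at least 3 CPM, the log2 ratio of the H2O2 mean to the control mean was −1 or lower with 0.5 CPM added to both, and the highest H2O2 sample lay below the lowest control sample. That floor on the control mean was reached by 11730 genes, of which 1.54% became members. The first clauses gave 207 genes. A further clause left out 26 of them, whose 6 values after mitochondria and MitoCoat lay all above (5 genes) or all below (21 genes) their 6 values after H2O2 alone and after MitoCoat-mRNA. The members were thus selected on the measured H2O2 and control values, and that difference is given as a description with no test.

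The cells were cortical astrocytes from newborn Sprague Dawley rats, in 5 groups of 3 samples. The control group received water as vehicle. The other 4 groups received 100 µM H2O2 for 30 min and, 24 h later, either nothing more (H2O2), unmodified mitochondria (mitochondria), mitochondria coated with an artificial DOTAP/DOPE lipid membrane (MitoCoat), or RNA extracted from mitochondria-enriched fractions and encapsulated in the same lipids (MitoCoat-mRNA). RNA was sequenced 6 h after treatment, and groups given a treatment without H2O2, or the lipids alone, were not analysed here. The mitochondria were prepared from cryopreserved rat placenta, so reads after the organelle and RNA treatments can come from the donor preparation as well as from the astrocytes. Library totals ran from 35315654 to 46778663 assigned reads. No member's identifier could be paired with a gene symbol, since 0 of the 32552 identifiers matched the reference table used here. The members are accordingly described by level, course and position, and the astrocyte label was not checked against marker genes. In bulk RNA, fewer cells that express a gene and less RNA per cell cannot be told apart.

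H2O2 is a diffusible oxidant that cells clear with catalase, peroxiredoxins and glutathione peroxidases, and astrocytes are a main source of glutathione for neighbouring neurons. A brief exposure oxidises protein thiols, lipids and DNA, and transcript levels of many genes shift for hours afterwards through stress-responsive transcription factors and RNA turnover. Isolated mitochondria added to cells can be taken up by endocytosis, and a cationic lipid layer changes how such particles meet the plasma membrane.

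With 0.5 CPM added to both means, the level after H2O2 was 2.00-fold to 4.82-fold lower than in control, with a median of 2.34-fold. Most falls lay near the threshold. A ratio of control to H2O2 from 2 to 2.5 was found for 111 members, from 2.5 to 3 for 36, from 3 to 4 for 30 and above 4 for 4. The 3 members nearest the threshold had log2 ratios of −1.0004, −1.0046 and −1.0051, and the 3 nearest genes outside it, which met every other clause, had −0.9968, −0.9949 and −0.9937.

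Low levels in control cells were more common among the members than among the 11730 genes. The control mean of the members ran from 3.02 to 3503 CPM with a median of 11.7 CPM, and the median of their H2O2 means was 4.44 CPM. Of the members, 82 (45.3%) lay from 3 to 10 CPM in control, against 19.8% of the 11730 genes. At the other end, 27 members (14.9%) reached 100 CPM, against 17.5% of those genes. The levels were unevenly shared, with 29.4% of the summed control CPM in 1 gene, 48.7% in 5 and 58.7% in 10. Members also varied more between replicates than the rest. Their median coefficient of variation was 18.3% in control and 21.2% in H2O2, against 8.79% and 10.6% over the 11730 genes, and it was also the higher value within each of 4 classes of control level, in all 5 groups.

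Summed over the 181 genes, the level was 11047, 12029 and 12709 CPM in the control samples and 5573, 4806 and 4680 CPM in the H2O2 samples. It was 4708, 4864 and 4428 CPM after mitochondria. After MitoCoat it was 4312, 4572 and 4015 CPM, and after MitoCoat-mRNA 4225, 4975 and 4231 CPM. All 9 treated samples thus lay far below the lowest control sample and in or below the range of the H2O2 samples. The MitoCoat samples were all below the lowest H2O2 sample, while the other treatments overlapped with it. As a share of the control mean, the H2O2 mean was 42.1%, and the treated means were 39.1%, 36.0% and 37.5% in the same order. Without the most abundant gene these shares were 41.1%, 37.9%, 33.9% and 37.7%.

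**Figure D1:**
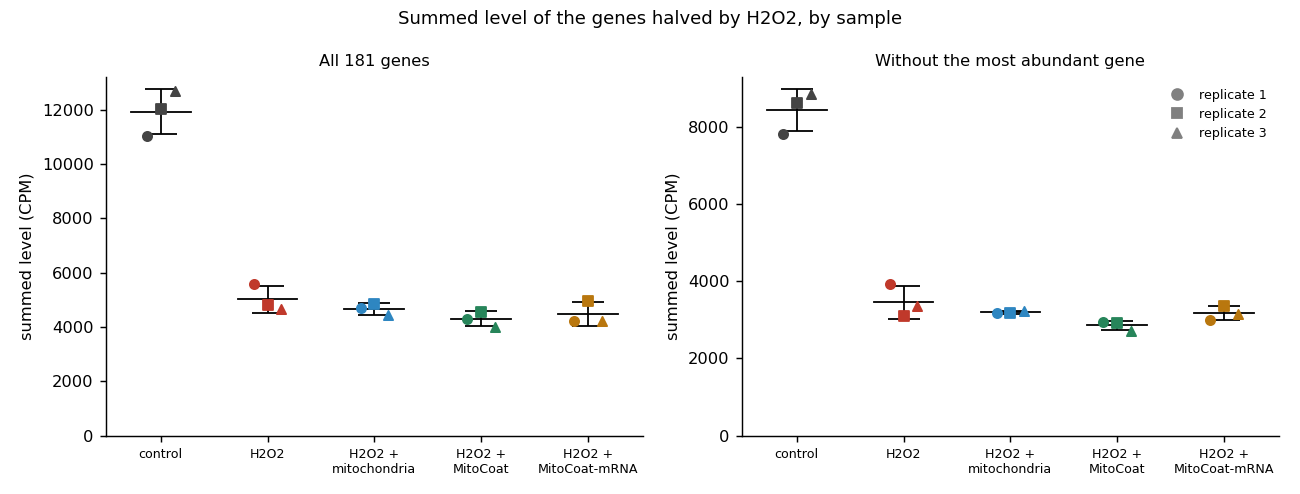
Summed level of the 181 genes (left) and of the same genes without the most abundant one (right), in CPM on an axis from 0, by group. Points are single samples with a marker for each replicate number, long bars are group means and short bars 1 SD (n = 3); in the left panel the highest sample exposed to H2O2 is at 5573 CPM and the lowest control sample at 11047 CPM.

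The low level persisted gene by gene. All 12 samples exposed to H2O2 lay below all 3 control samples for 173 of the 181 members, where 9.63% of the 11730 genes did so. After mitochondria 173 members had all 3 samples below control (background 19.8% of genes), after MitoCoat 178 (background 20.7%) and after MitoCoat-mRNA 179 (background 20.5%). The rule itself set control apart from H2O2, so these counts are a description. None of the members had a treated mean at or above its control mean under any treatment. The treated mean still met the log2 ratio of −1 or lower against control for 149 members after mitochondria, 164 after MitoCoat and 164 after MitoCoat-mRNA.

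**Figure D2:**
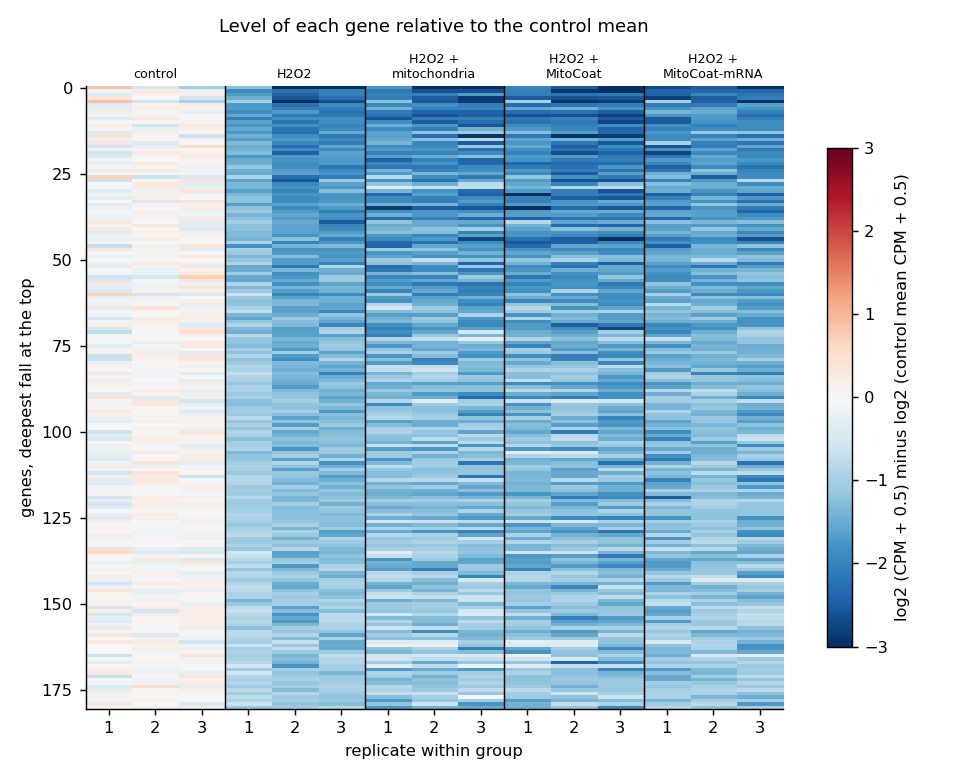
Level of each of the 181 genes in each of the 15 samples, as log2 (CPM + 0.5) minus log2 of the control mean with the same addition, genes ordered by the size of their fall after H2O2. Colours run from dark blue at −3 or lower through white at 0 to red at 3; the 12 columns of samples exposed to H2O2 are blue for nearly every gene, and H2O2 replicate 1 is paler than replicates 2 and 3.

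The course between H2O2 alone and the treatments was small and leaned downwards. On the log2 scale, the median difference of group means from H2O2 was −0.08 after mitochondria, −0.17 after MitoCoat and −0.10 after MitoCoat-mRNA, where the medians over the 11730 genes were 0.03, 0.04 and 0.01. The treated mean was below the H2O2 mean for 116 members (64.1%) after mitochondria, 134 (74.0%) after MitoCoat and 126 (69.6%) after MitoCoat-mRNA, against 41.3%, 42.3% and 48.1% of the 11730 genes. The 3 comparisons share the H2O2 samples, so their likeness is not a separate result. For 87 members all 3 treated means were below the H2O2 mean, and for 25 members none was. The lowest of the 5 group means was that of MitoCoat for 96 members, MitoCoat-mRNA for 40, H2O2 for 25 and mitochondria for 20. No share over the 11730 genes was taken for these orders of means, so they describe the members only.

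The share of the fall regained places each treated mean on a scale where the H2O2 mean is 0% and the control mean 100%, on the log2 scale. The median over the members was −6.65% after mitochondria, −14.3% after MitoCoat and −7.58% after MitoCoat-mRNA. A regain above 25% was seen for 21, 12 and 3 members in that order, and above 50% for 5, 1 and 0. Further falls beyond −25% were seen for 33, 58 and 23 members, and beyond −50% for 4, 14 and 0. The highest regain of any member was 62.4% after mitochondria, 53.7% after MitoCoat and 43.3% after MitoCoat-mRNA.

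**Figure D3:**
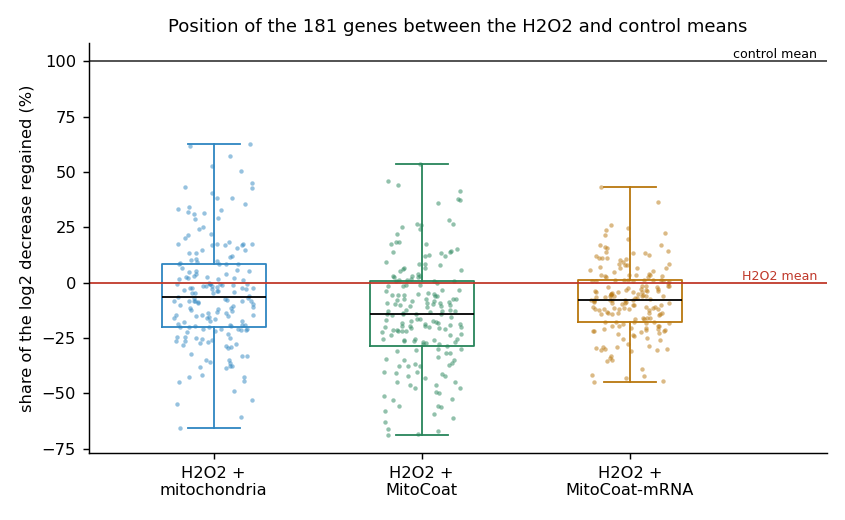
Share of the log2 fall regained by each of the 181 genes (points) after each treatment, in percent, with the H2O2 mean at 0 and the control mean at 100. Boxes hold the middle 50% of genes with the median as a black line and whiskers reach the lowest and highest gene; all 3 medians lie below 0 and no gene reaches 100.

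H2O2 replicate 1 stood apart from the other H2O2 samples in these genes. When it was left out, the medians of 2 of the 3 treatments no longer leaned clearly downwards. It held the highest of the 3 H2O2 values for 125 members (69.1%), against 39.4% of the 11730 genes. Its median log2 ratio to the control mean was −1.07, while replicates 2 and 3 stood at −1.42 and −1.37. When it was left out, 396 genes met the rule, 173 of them among the 181. The median regain of the 181 genes, measured from H2O2 replicates 2 and 3, was 1.53% after mitochondria and 1.86% after MitoCoat-mRNA, and −6.68% after MitoCoat. In the edgeR fits with all 6 samples, the median log2 difference from H2O2 over the 181 genes was −0.13 for mitochondria, −0.10 for MitoCoat-mRNA and −0.25 for MitoCoat. In the same fits without this sample it was −0.02 for mitochondria, 0.01 for MitoCoat-mRNA and −0.18 for MitoCoat. Without replicate 1, the medians after mitochondria and MitoCoat-mRNA lay close to H2O2 replicates 2 and 3, and that after MitoCoat lay below them. Those replicates had themselves helped to choose the members as low. With genes chosen anew on the other 2 H2O2 samples, the median regain from replicate 2 was 1.11% after mitochondria and −0.70% after MitoCoat-mRNA. From replicate 3 it was −7.76% and −7.19%. After MitoCoat it was −8.91% from replicate 2 and −17.6% from replicate 3.

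Gene by gene, more members lay wholly below H2O2 alone than wholly above it. The 3 samples after mitochondria all lay below the 3 H2O2 samples for 21 members (11.6%) and all above for 12 (6.63%). Of the 11730 genes, 7.79% and 13.6% did so. After MitoCoat the counts were 35 (19.3%) below and 4 (2.21%) above (backgrounds 8.24% and 16.5%). After MitoCoat-mRNA they were 7 (3.87%) below and 2 (1.10%) above (backgrounds 4.08% and 4.66%). The H2O2 values were low by choice of the members, and the leave-out clause had removed the 26 genes whose organelle values did not overlap with those after H2O2 and MitoCoat-mRNA. Counts of members against H2O2 or MitoCoat-mRNA therefore describe what the rule left.

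The edgeR quasi-likelihood test was fitted over all genes, with Benjamini-Hochberg adjustment, and all 181 members passed its filter on low counts. At an adjusted p under 0.05, 1 member was higher and 2 lower after mitochondria than after H2O2 (backgrounds 1.86% and 1.73% of the genes tested), and 6 were higher and 26 lower at an unadjusted p under 0.05 (backgrounds 7.07% and 6.77%). With replicate numbers as a block, which paired these samples, 6 were higher and 19 lower (backgrounds 4.12% and 3.84%), and DESeq2 called 2 higher and 6 lower (backgrounds 2.87% and 2.65%). After MitoCoat 0 members were higher and 4 lower (backgrounds 1.47% and 1.58%), while 3 were higher and 41 lower at an unadjusted p under 0.05 (backgrounds 7.24% and 7.67%). DESeq2 called 0 higher and 18 lower after MitoCoat (backgrounds 2.84% and 3.59%). After MitoCoat-mRNA edgeR and DESeq2 called 0 members in either direction (background 0% by both), with 0 higher and 9 lower at an unadjusted p under 0.05 in edgeR (backgrounds 1.19% and 1.8%). The replicate block, which paired these samples too, also called 0 (background 0%), with 0 higher and 17 lower at an unadjusted p under 0.05 (backgrounds 1.92% and 2.99%). With single samples left out, the share of all genes called, both directions together, was below the 3.59% after mitochondria and 3.05% after MitoCoat of the fits with 6 samples, and it is the background of the counts that follow. Without H2O2 replicate 1 the calls were 1 after mitochondria (background 2.51%) and 1 after MitoCoat (background 1.62%). Without H2O2 replicate 3, or without mitochondria replicate 1, there were 0 after mitochondria (backgrounds 2.24% and 1.59%), and without mitochondria replicate 2 or replicate 3 there was 1 (backgrounds 1.94% and 2.49%). For MitoCoat, leaving out H2O2 replicate 3 or MitoCoat replicate 3 left 1 call (backgrounds 1.36% and 2.64%), and leaving out MitoCoat replicate 2 left 2 (background 1.24%). Without H2O2 replicate 2 there were 2 after mitochondria (background 2.78%) and 5 after MitoCoat (background 2.65%), and without MitoCoat replicate 1 there were 4 (background 1.88%). The median half-width of the 95% interval of a member's log2 difference from H2O2 was 0.56 after mitochondria, 0.59 after MitoCoat and 0.59 after MitoCoat-mRNA, against 0.32, 0.35 and 0.32 over all genes tested.

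The rule did not set coated against unmodified mitochondria. By group means, 138 of the 181 members (76.2%) were lower after MitoCoat than after mitochondria, where 50.7% of the 11730 genes were, and the median log2 difference was −0.14 against −0.00. In the classes of control level the median was −0.08 from 3 to 10 CPM, −0.17 from 10 to 30, −0.16 from 30 to 100 and −0.15 above 100. All 3 MitoCoat samples lay below all 3 mitochondria samples for 16 members and above for 5 (backgrounds 4.93% and 6.58%). The edgeR fit called 0 members in either direction (background 0%), with 0 higher and 7 lower at an unadjusted p under 0.05 (backgrounds 2.78% and 2.17%). DESeq2 called 0 of the 29 members that its own filter kept (backgrounds 0.0679% higher and 0.017% lower). With the replicate block, which paired these samples, 0 were called (backgrounds 0.0318% higher and 0% lower), with 0 higher and 25 lower at an unadjusted p under 0.05 (backgrounds 4.06% and 4.85%). The median log2 difference in the edgeR fit was −0.16, and leaving out each sample in turn moved it between −0.20 and −0.10.

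**Figure D4:**
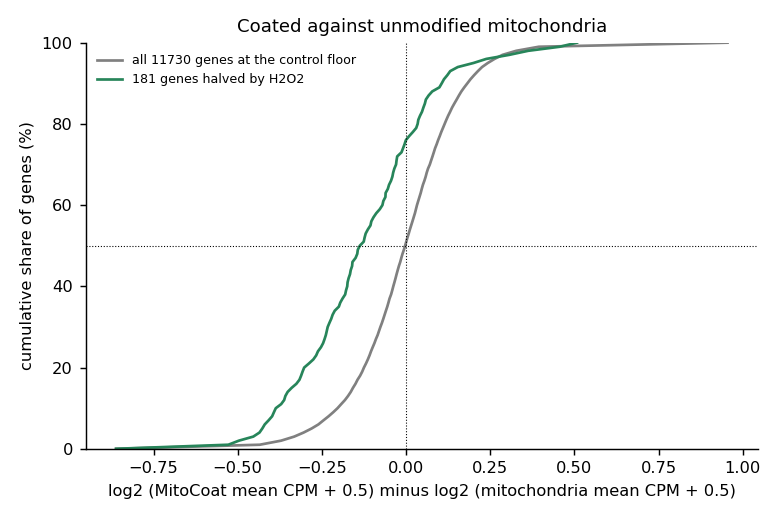
Cumulative share of genes, in percent, by the log2 difference of group means between MitoCoat and mitochondria (0.5 CPM added), for the 181 genes (green) and the 11730 genes at the control floor (grey). The green curve crosses 0 at 76.2% of genes and the grey curve at 50.7%.

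The organelle treatments were also set beside MitoCoat-mRNA, with the leave-out clause having used all 3 of these groups. After mitochondria 2 members were higher and 0 lower (backgrounds 2.14% and 1.41%), with 9 higher and 12 lower at an unadjusted p under 0.05 (backgrounds 7.98% and 6.2%). With the replicate block, which paired these samples, 7 were higher and 5 lower (backgrounds 4.19% and 3.14%), and DESeq2 called 3 higher and 3 lower (backgrounds 2.83% and 2.23%). After MitoCoat 0 were higher and 2 lower (backgrounds 1.57% and 1.42%), with 3 higher and 24 lower at an unadjusted p under 0.05 (backgrounds 7.27% and 7.49%). DESeq2 called 0 higher and 7 lower after MitoCoat (backgrounds 2.55% and 2.73%). All 3 mitochondria samples lay below all 3 MitoCoat-mRNA samples for 11 members and above for 10 (backgrounds 7.07% and 13.6%), and the MitoCoat samples for 17 and 7 (backgrounds 7.59% and 14.2%). The number called for mitochondria in both directions was 1 without mitochondria replicate 1 or replicate 2 (backgrounds 1.84% and 2.09%), and 5 without mitochondria replicate 3 (background 3.90%). For MitoCoat it was 0 without MitoCoat replicate 2 or MitoCoat-mRNA replicate 2 (backgrounds 1.31% and 1.01%), and 1 without replicate 3 of MitoCoat or of MitoCoat-mRNA (backgrounds 2.73% and 1.61%). The median log2 difference over the members was −0.02 for mitochondria and −0.18 for MitoCoat.

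The adjusted p-values given for single genes come from the fits over all genes. The rule had used the same samples, so they are not independent of how the members were chosen, and none is given for a rise from the H2O2 values that chose the gene as low. The gene with the highest regain after mitochondria was ENSRNOG00000012404, on the minus strand of chromosome 1 (Rnor6.0, chr1:162381253-162385575). Its level was 7.91, 9.87 and 7.10 CPM in control, 2.92, 2.06 and 2.10 CPM after H2O2, 6.11, 4.91 and 4.78 CPM after mitochondria, 2.85, 4.24 and 4.55 CPM after MitoCoat and 2.52, 2.63 and 2.62 CPM after MitoCoat-mRNA. The mitochondria samples lay between the control and H2O2 samples with no overlap, and the MitoCoat samples overlapped with H2O2. The log2 difference of mitochondria from H2O2 was 1.12 (SE 0.22, n = 3 per group). From MitoCoat-mRNA it was 0.99 (SE 0.19, edgeR adjusted p = 0.0191). The call against MitoCoat-mRNA was lost without mitochondria replicate 1 or 2 or any MitoCoat-mRNA sample, with adjusted p up to 0.101.

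ENSRNOG00000015078 (chr1:213810696-213811901, minus strand) kept its call between mitochondria and MitoCoat-mRNA in all 12 alternatives tried. Its level was 113, 99.2 and 113 CPM in control, 57.1, 51.1 and 46.0 CPM after H2O2, 70.2, 66.3 and 68.7 CPM after mitochondria, 49.5, 57.1 and 64.1 CPM after MitoCoat and 46.6, 41.9 and 35.9 CPM after MitoCoat-mRNA. Mitochondria samples were all above the H2O2 and MitoCoat-mRNA samples. The log2 difference between mitochondria and MitoCoat-mRNA was 0.68 (SE 0.10, n = 3 per group, edgeR adjusted p = 0.00531). From H2O2 it was 0.37 (SE 0.10).

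In the other direction, ENSRNOG00000056562 (chr1:171793782-171818068, plus strand) was lower after MitoCoat than after H2O2 alone. It stood at 48.6, 58.2 and 52.3 CPM in control, 17.8, 11.5 and 12.0 CPM after H2O2, 11.1, 8.28 and 9.38 CPM after mitochondria, 8.24, 8.13 and 7.24 CPM after MitoCoat and 15.4, 16.1 and 10.4 CPM after MitoCoat-mRNA. The MitoCoat samples were below every H2O2 and MitoCoat-mRNA sample. The log2 difference of MitoCoat was −0.85 (SE 0.18) from H2O2 and −0.88 (SE 0.18) from MitoCoat-mRNA, with edgeR adjusted p = 0.0385 and 0.0318. The first call was lost without H2O2 replicate 1 or 3 or any MitoCoat sample, and the second without any MitoCoat sample or MitoCoat-mRNA replicate 1 or 2, with adjusted p up to 0.119 and 0.174. After mitochondria the log2 difference from H2O2 was −0.56 (edgeR adjusted p = 0.172), and with the replicate block −0.55 (adjusted p = 0.0101).

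ENSRNOG00000011452 (chr10:65586504-65590126, plus strand) was past the threshold after both organelle treatments, which share the H2O2 samples. Its level was 402, 360 and 364 CPM in control, 180, 168 and 153 CPM after H2O2, 136, 126 and 115 CPM after mitochondria, 111, 125 and 105 CPM after MitoCoat and 149, 150 and 133 CPM after MitoCoat-mRNA. All organelle samples lay below the H2O2 samples, and the MitoCoat-mRNA samples lay below them as well. The log2 difference from H2O2 was −0.45 (SE 0.10) after mitochondria and −0.60 (SE 0.11) after MitoCoat, with edgeR adjusted p = 0.0425 and 0.0174. Leaving out any single sample ended the first call, with adjusted p from 0.0590 to 0.166. Leaving out H2O2 replicate 1 or MitoCoat replicate 1 or 3 ended the second, at 0.0589, 0.0536 and 0.0509.

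**Figure D5:**
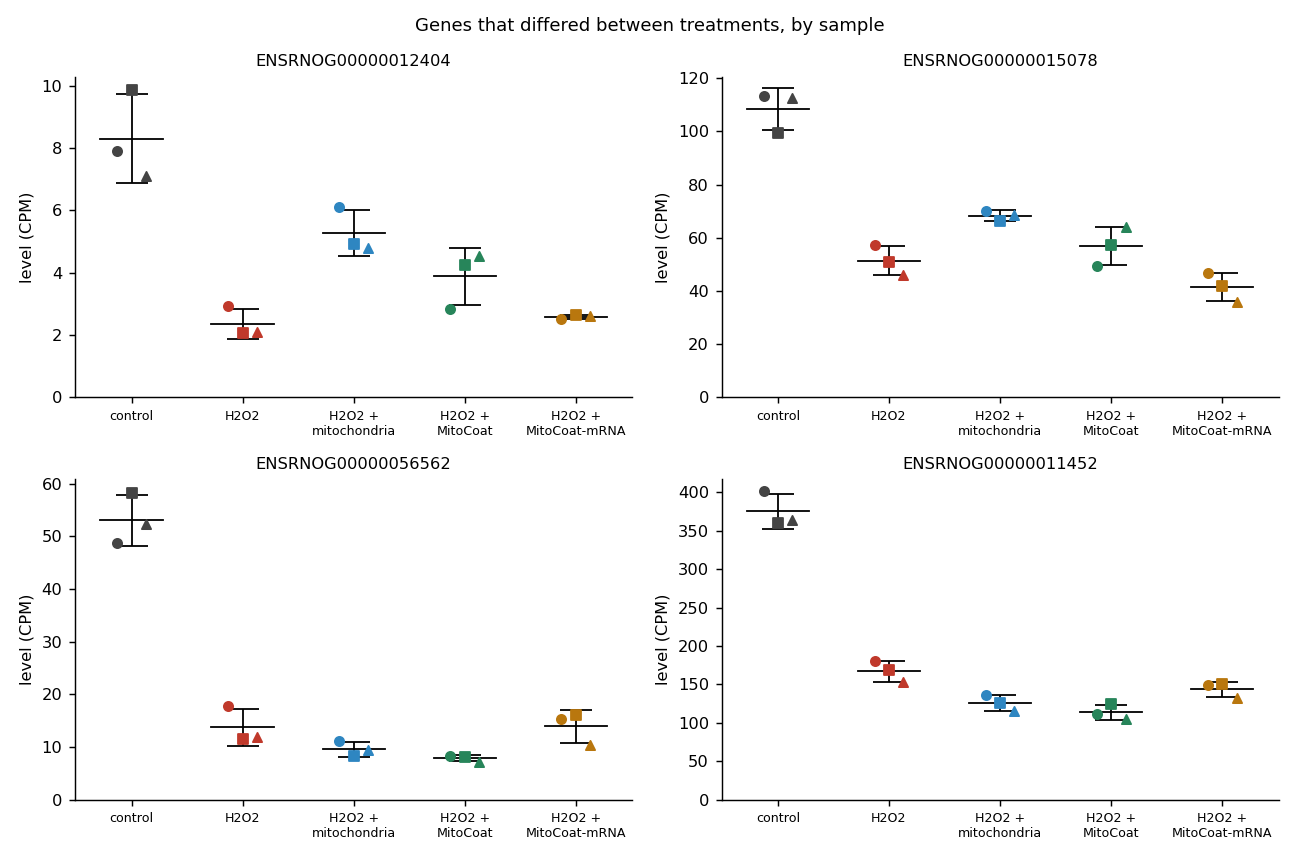
Level in CPM, on axes from 0, of the 4 members described by identifier, in each of the 15 samples. Circles, squares and triangles are replicates 1, 2 and 3, long bars are group means and short bars 1 SD (n = 3); the upper pair sits higher after mitochondria than after MitoCoat-mRNA, and the lower pair sits lower after MitoCoat than after H2O2.

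The other 4 members past the threshold of the edgeR fit with no block were all lower in the organelle group. On chromosome 7 (chr7:57253023-57679795, minus strand), a gene at 5.19, 5.90 and 6.76 CPM in control stood at 2.27, 1.23 and 1.5 CPM after H2O2 and 0.414, 0.655 and 0.600 CPM after mitochondria. Its log2 difference from H2O2 was −1.61 (SE 0.37, edgeR adjusted p = 0.0458), and leaving out any single sample ended the call. After MitoCoat it stood at 0.233, 0.789 and 0.627 CPM, also below every H2O2 sample, with a log2 difference of −1.63 from H2O2 (edgeR adjusted p = 0.137, and 0.0325 by DESeq2). The MitoCoat-mRNA samples of this gene, at 0.740, 1.44 and 1.02 CPM, overlapped with H2O2. After MitoCoat, a gene on chromosome 13 (chr13:51985684-51992693, minus strand) went from 109, 86.6 and 112 CPM in H2O2 to 65.2, 69.3 and 66.0 CPM, a log2 difference of −0.66 (SE 0.11, edgeR adjusted p = 0.0111) that lost its call only without H2O2 replicate 3. A gene on chromosome 3 (chr3:176444544-176465162, minus strand) went from 25.1, 22.7 and 21.6 CPM to 14.9, 16.2 and 17.3 CPM, a log2 difference of −0.57 (SE 0.11, edgeR adjusted p = 0.0256) whose call was lost when any single sample was left out. In both, the MitoCoat and H2O2 samples did not overlap. After mitochondria the chromosome 13 gene stood at 83.9, 77.9 and 77.4 CPM and the chromosome 3 gene at 16.9, 20.6 and 16.0 CPM, also below every H2O2 sample. Those log2 differences were −0.41 and −0.42 (edgeR adjusted p = 0.0788 and 0.120), with adjusted p = 0.0110 and 0.0258 under the replicate block. After MitoCoat-mRNA they stood at 72.2, 88.2 and 87.4 CPM and at 19.4, 20.7 and 18.5 CPM. The last, on chromosome 4 (chr4:88694583-88718533, plus strand), stood at 8.92, 5.59 and 7.32 CPM after MitoCoat and 12.4, 13.0 and 14.5 CPM after MitoCoat-mRNA. That log2 difference was −0.92 (SE 0.18, edgeR adjusted p = 0.0233), and its H2O2 samples, at 12.6, 8.28 and 14.2 CPM, overlapped with both. Its mitochondria samples, at 9.58, 9.82 and 10.8 CPM, lay between those after MitoCoat and MitoCoat-mRNA. The call was lost without replicate 2 or 3 of either group.

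The most abundant member lay on chromosome 1 (chr1:252537615-252550394) and held 3237, 3421 and 3852 CPM in control. It fell to 1648, 1716 and 1315 CPM after H2O2 and stood at 1532, 1691 and 1193 CPM after mitochondria, 1378, 1655 and 1293 CPM after MitoCoat and 1233, 1612 and 1066 CPM after MitoCoat-mRNA. The treated samples overlapped with the H2O2 samples throughout, and replicate 2 was the highest of its group in all 4 groups exposed to H2O2. Taken by replicate number, each treated sample lay below its H2O2 sample. Those numbers paired mitochondria and MitoCoat-mRNA with H2O2, and not MitoCoat. This gene was also the highest per length, at 2519 CPM per kilobase of exon in control. Of the 10 most abundant members, with control means from 222 CPM upwards, 8 had all 3 treated means below the H2O2 mean and 1 had none. Their median regain was −17.0% after mitochondria, −24.8% after MitoCoat and −14.2% after MitoCoat-mRNA.

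The 12 deepest falls, from 3.62-fold to 4.82-fold in the ratio of control to H2O2, had a median regain of −13.7% after mitochondria, −14.6% after MitoCoat and −5.37% after MitoCoat-mRNA. Of these, 10 had a mean below H2O2 after mitochondria, 10 after MitoCoat and 7 after MitoCoat-mRNA. The deepest was a gene on chromosome 17 (chr17:81352700-81433743), at 16.3, 6.05 and 3.98 CPM in control and 3.40, 0.441 and 0.435 CPM after H2O2, so its samples of replicate number 1 were several-fold above the others in both groups. The most abundant among these 12 lay on chromosome 7 (chr7:95074236-95273298). It stood at 161, 225 and 235 CPM in control, 63.0, 39.3 and 50.4 CPM after H2O2, 50.7, 49.2 and 64.6 CPM after mitochondria, 48.6, 45.2 and 47.5 CPM after MitoCoat and 38.0, 53.1 and 45.6 CPM after MitoCoat-mRNA. Its 9 treated values overlapped with the H2O2 range and none came near control.

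Medians of the course by class of fold and of control level are descriptions with no test, since the fold and the course used the same H2O2 values and the added 0.5 CPM shrinks the differences of the least expressed genes. In 3 classes of 60 or 61 members by fold, the median log2 difference from H2O2 was −0.03, −0.05 and −0.19 after mitochondria, −0.15, −0.12 and −0.30 after MitoCoat and −0.07, −0.11 and −0.10 after MitoCoat-mRNA, from the smallest to the largest fold. In 3 such classes by control CPM it was −0.03, −0.01 and −0.20 after mitochondria, −0.05, −0.16 and −0.30 after MitoCoat and −0.05, −0.10 and −0.12 after MitoCoat-mRNA. The most expressed class had the lowest of the 3 medians under every treatment.

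The members were spread over 21 chromosomes. The most lay on chromosome 1, with 23 (12.7% of members against 12.1% of the 11730 genes), and 18 (9.94%) each lay on chromosomes 7 and 10, which held 6.48% and 8.47% of those genes. Chromosomes 9 and 16 held 2 (1.10%) each, with 3.89% and 2.87% of those genes. No test was made of these shares. Only 3 pairs lay within 100000 bases of each other. One of them, on chromosome 5 (chr5:126334803-126395668), overlaps on opposite strands, so reads of the pair cannot be told apart if strand was not used in counting. The merged exons of a member spanned a median of 2916 bases against 2467 over the 11730 genes, and the gene bodies 40158 against 22316 bases, with a median of 10 merged exons in both sets.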

How the data were processed

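Bulk RNA of 15 samples was sequenced as polyA libraries. The deposited files hold raw counts per gene, which the authors obtained with featureCounts (Subread 1.5.2 in the submitters' processing notes) from uniquely mapped reads over exons, after trimming by Trimmomatic and alignment by STAR to Rnor6.0 with its Ensembl annotation. The labels describe extraction from mitochondria-enriched fractions, whereas the study's methods describe RNA of the astrocyte cultures. The study calls the samples of a group biological replicates and says that its cell experiments were repeated independently. The labels tie no sample to a culture, so p-values measure the spread between these samples, which may be partly technical. No 2 samples of a group were duplicates, since the variance between them was 10.6 to 59.7 times that of counting. One further file repeated mitochondria replicate 2 and was not used.

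CPM was the count over the library total. Tests were edgeR 4.0.16 quasi-likelihood F tests in R 4.3.3 (filterByExpr, TMM, the 6 samples of each pair of groups, Benjamini-Hochberg adjustment over all genes tested, adjusted p under 0.05), checked on simulated counts. The alternatives were DESeq2 1.42.0, RLE size factors, other filters, all 15 samples in one fit, a replicate block and leaving out each sample. Replicate numbers were taken to pair samples where every same-numbered pair correlated above 0.1 in its deviations from the group means. This held for mitochondria and MitoCoat-mRNA against H2O2 (0.219 to 0.264 and 0.109 to 0.326). It also held for MitoCoat against mitochondria (0.173 to 0.219) and for mitochondria against MitoCoat-mRNA (0.149 to 0.264). MitoCoat against MitoCoat-mRNA fell short at 0.081 to 0.103, though its differently numbered pairs were all lower (−0.060 to −0.028). The members and lists were chosen with earlier results of these data known. All 8 members past the adjusted threshold of the edgeR fit with no block in a comparison of the groups exposed to H2O2 are described. Members called only with the replicate block or by DESeq2 are counted, and those calls were not used to pick genes for description. Identifiers are given for the 2 that were higher after mitochondria and, chosen after their values were seen, for the 2 of the lower ones that passed in 2 comparisons. The other genes given by position are the most abundant, the deepest fall and the most abundant of the 12 deepest. The rule for named genes asked for symbols, and the gene lists and marker genes drawn up for this work need symbols too, so neither was used.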

Additional observations from a re-analysis of the deposited data

How the results depend on the processing

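The number of members was 107 with 2 CPM added in place of 0.5, and 163 to 396 when single control or H2O2 samples were left out. Calls over the 181 members follow with the share of all genes called in the same fit in parentheses, both directions together. Between mitochondria and H2O2 they numbered 6 (4.64%) with all 15 samples in one fit, 25 (7.96%) with the replicate block, 8 (5.53%) by DESeq2 and 0 to 2 (1.59% to 2.78%) with single samples left out. Between MitoCoat and H2O2 they numbered 9 (2.91%) with no filter, 11 (5.44%) with all 15 samples, 16 (5.88%) with the replicate block, 18 (6.44%) by DESeq2 and 1 to 5 (1.24% to 2.65%) with single samples left out. Replicate numbers did not pair these samples by the correlation used, which ran from −0.064 to 0.216 over same-numbered pairs. Between mitochondria and MitoCoat-mRNA they numbered 4 (3.33%) with no filter, 5 (3.48%) with all 15 samples, 12 (7.33%) with the replicate block, 6 (5.06%) by DESeq2 and 1 to 5 (1.69% to 3.90%) with single samples left out. Between MitoCoat and MitoCoat-mRNA they numbered 6 (2.97%) with no filter, 4 (3.76%) with all 15 samples, 7 (5.27%) by DESeq2, 2 (2.53%) with the replicate block and 0 to 3 (1.01% to 3.48%) with single samples left out. As shares of the members, the first 3 counts against H2O2 were 3.31%, 13.8% and 4.42% for mitochondria, and the first 4 were 4.97%, 6.08%, 8.84% and 10.0% for MitoCoat. Against MitoCoat-mRNA the first 4 were 2.21%, 2.76%, 6.63% and 3.31% for mitochondria and 3.31%, 2.21%, 3.87% and 1.10% for MitoCoat. The cause was not tested. MitoCoat-mRNA against H2O2 and MitoCoat against mitochondria kept 0 calls in every alternative run. Almost no gene was called in those fits. The share over all genes was 0% throughout for MitoCoat-mRNA against H2O2. For MitoCoat against mitochondria it was 0.0318% with the replicate block, 0.0849% by DESeq2 and 0% in the rest. The 8 members past the threshold kept their direction throughout, and their calls were lost in no alternative other than those leaving out a sample.

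The median regain was −10.1% to 1.53% for mitochondria, −20.7% to −6.68% for MitoCoat and −13.3% to 1.86% for MitoCoat-mRNA with single samples left out. With genes chosen anew on 2 H2O2 samples and the baseline taken from the other, the gene sets differed in size, and the medians are given for mitochondria, MitoCoat and MitoCoat-mRNA in turn. They were −69.2%, −90.7% and −74.2% over 396 genes with H2O2 replicate 1 as baseline. With replicate 2 they were 1.11%, −8.91% and −0.70% over 163 genes, and with replicate 3 −7.76%, −17.6% and −7.19% over 186 genes. Replicate 1 had the smallest median fall of the H2O2 samples in the 181 genes (log2 −1.07 from the control mean). A smaller fall enlarges any share of it, and this was not tested for the 396 genes. The counts of members below control stayed from 173 to 180 in every alternative run. With 3 samples a group, the median half-width of the 95% interval of a member's log2 difference was 0.56 to 0.60 over the 6 comparisons, against 0.29 to 0.35 over all genes tested.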

Other observations

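The 26 genes left out by the last clause of the rule had larger shifts after the organelle treatments, which that clause fixed. The 5 left out above had median log2 differences from H2O2 of 1.68 after mitochondria and 1.46 after MitoCoat, and −0.02 after MitoCoat-mRNA. The 21 left out below had −0.77, −0.77 and −0.10 in that order.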
